A study of Mus musculus with 18 samples.

Results

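Transcripts of 10 genes of DNA replication and cell proliferation were followed in sorted brain macrophages of bone marrow chimaeras. The genes were taken from the count table by symbol, with no cut-off on their values: Mcm2, Mcm3, Mcm4, Mcm5, Mcm6, Mcm7, Pcna, Mki67, Top2a and Stmn1. All 10 were among the 13043 genes measured, and all 10 were among the 10597 that passed the filter on low counts. Recipients were wild-type C57BL6/C mice that had been lethally irradiated and given Ms4a3-Cre: R26-TdTomato: Cx3cr1-gfp marrow; cells were sorted 32 weeks later, and neither age nor sex of the mice is given in the sources used here. Ms4a3-Cre is active in granulocyte-monocyte progenitors, so its TdTomato mark is passed on to monocytes and neutrophils alike, and Cx3cr1-gfp marks cells of the monocyte and macrophage lineage. The groups were monocyte-derived leptomeningeal macrophages (GFP+ TdTomato+, 4 libraries), HSC-derived leptomeningeal macrophages (GFP+ without TdTomato, 2 libraries; HSC, haematopoietic stem cell), monocyte-derived microglia (GFP+ TdTomato+, 4 libraries), HSC-derived microglia (GFP+ without TdTomato, 4 libraries) and host microglia (neither colour, 4 libraries). Every group therefore came from an irradiated recipient carrying this donor marrow, and all cells were handled with actinomycin D, which blocks transcription.

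RNA was counted by bulk MARS-seq, a method that reads the 3' end of polyadenylated transcripts and counts unique molecular identifiers (UMIs). Total UMI counts ran from 1066281 to 1809700 in monocyte-derived leptomeningeal macrophages, from 154727 to 648266 in HSC-derived leptomeningeal macrophages, from 1072911 to 1507199 in monocyte-derived microglia, from 264795 to 692884 in HSC-derived microglia and from 1230127 to 2440234 in host microglia. HSC-derived microglia replicates 3 and 4 and HSC-derived leptomeningeal replicate 2 were the 3 shallowest libraries. Levels are CPM (UMI counts scaled to a common library size, with TMM factors), and 3 counts, used here as the floor of what a count of 0 allows, stood for between 1.05 and 23.1 CPM. Floors and counting intervals cover counting error only. All 10 macrophage and microglia identity markers were detected in every group, with summed levels of 8075 to 9316 CPM in monocyte-derived leptomeningeal macrophages, 7541 to 7941 in HSC-derived leptomeningeal macrophages, 15422 to 16215 in monocyte-derived microglia, 15381 to 16196 in HSC-derived microglia and 23925 to 26474 in host microglia. The labels do not say that libraries of a group are separate mice, so p-values measure the spread between these samples, which may be technical.

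MCM2 to MCM7 form the ring-shaped helicase that is loaded on replication origins in G1 and unwinds DNA ahead of the fork in S phase. PCNA is the sliding clamp that holds DNA polymerases on the template and also serves in DNA repair, so its transcript is not confined to dividing cells. Ki-67, the product of Mki67, coats mitotic chromosomes and is a standard mark of cycling cells; topoisomerase II alpha (Top2a) untangles sister DNA in G2 and mitosis; stathmin (Stmn1) destabilises microtubules. Resident microglia of the healthy adult brain divide slowly, and transcription of most of these genes is switched on by E2F factors at the G1/S boundary or, later in the cycle, through the CHR element bound by DREAM and MuvB complexes.

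RefSeq promoter windows (build GRCm38.p6), each with 250 bases before and 50 from the annotated start, were found for 8 of the 10 genes, with 9 windows because Mcm7 has a pair; Mcm4 and Stmn1 had no entry. Each window was searched on both strands for an E2F-like octamer (TTTCGCGC or TTTCCCGC or TTTGGCGC or TTTGCCGC), for the CHR hexamer TTTGAA and for CCAAT. The E2F-like letters were present in 4 of the 9 windows, those of Mcm3, Mcm5, Mcm6 and one of Mcm7, against 2.26% of 32851 RefSeq windows of the same length. TTTGAA was present in 3 (Mcm2, Mki67 and Top2a), against 17.89% of all windows. CCAAT was present in 9, against 37.41%. One E2F-like match of Mcm7 overlaps a CCAAT. A match describes the letters only.

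The windows of 5 genes are shown, each with an E2F-like or TTTGAA match. Mcm6 (chr1:128359656-128359955, minus strand) and Mcm5 (chr8:75109259-75109558, plus strand) were both called higher in monocyte-derived leptomeningeal macrophages. Mcm3 (chr1:20820263-20820562, minus strand) was called in no comparison. Mki67 (chr7:135716330-135716629, minus strand) and Top2a (chr11:99024140-99024439, minus strand) had the widest fold differences. The windows of Mcm2, Mcm7 and Pcna are not shown. Pcna was also called higher, and its window has 0 E2F-like, 0 TTTGAA and 1 CCAAT match. Sequences run 5' to 3' on the gene's strand, and capitals mark the E2F-like, TTTGAA and CCAAT letters on either strand.
Mcm6: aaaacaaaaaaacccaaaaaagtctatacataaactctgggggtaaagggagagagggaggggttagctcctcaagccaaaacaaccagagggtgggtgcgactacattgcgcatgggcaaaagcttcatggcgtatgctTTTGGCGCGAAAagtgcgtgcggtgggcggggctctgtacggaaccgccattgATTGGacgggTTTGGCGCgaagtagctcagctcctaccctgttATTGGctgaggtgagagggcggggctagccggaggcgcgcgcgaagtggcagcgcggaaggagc
Mcm5: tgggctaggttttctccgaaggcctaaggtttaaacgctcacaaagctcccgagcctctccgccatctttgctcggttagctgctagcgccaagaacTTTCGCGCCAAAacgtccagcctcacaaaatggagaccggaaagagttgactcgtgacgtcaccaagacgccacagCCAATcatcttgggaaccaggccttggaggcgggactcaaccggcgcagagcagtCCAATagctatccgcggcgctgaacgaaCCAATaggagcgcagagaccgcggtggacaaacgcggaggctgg
Mcm3: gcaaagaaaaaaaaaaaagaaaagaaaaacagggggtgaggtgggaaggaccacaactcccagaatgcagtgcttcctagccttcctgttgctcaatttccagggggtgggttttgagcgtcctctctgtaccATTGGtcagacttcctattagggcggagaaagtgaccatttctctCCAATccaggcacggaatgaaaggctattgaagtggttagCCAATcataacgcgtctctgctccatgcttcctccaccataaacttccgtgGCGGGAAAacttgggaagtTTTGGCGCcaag
Mki67: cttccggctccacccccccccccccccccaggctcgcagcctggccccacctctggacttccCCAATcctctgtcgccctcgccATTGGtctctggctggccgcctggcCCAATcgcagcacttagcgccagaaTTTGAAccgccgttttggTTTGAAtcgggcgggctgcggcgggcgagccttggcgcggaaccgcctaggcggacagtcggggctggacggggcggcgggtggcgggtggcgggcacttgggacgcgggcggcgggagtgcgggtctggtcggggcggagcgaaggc
Top2a: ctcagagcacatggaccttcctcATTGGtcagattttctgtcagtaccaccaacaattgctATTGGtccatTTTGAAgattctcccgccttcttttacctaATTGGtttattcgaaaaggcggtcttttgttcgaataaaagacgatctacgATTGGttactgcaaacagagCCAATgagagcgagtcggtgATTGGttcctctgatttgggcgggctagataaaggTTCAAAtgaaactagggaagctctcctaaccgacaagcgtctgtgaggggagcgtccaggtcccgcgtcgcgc
Position 1 is the annotated start, and a position is that of the first base of a match. In Mcm6 an octamer on the plus strand begins at position -110 and one on the minus strand at -106, so they overlap; another lies at -47. In Mcm5 a like overlapping pair lies at -153 and -149. Mcm3 has its octamers after the start, at positions 20 and 39. Mki67 holds TTTGAA at -116 and -98, and Top2a at -179 and, on the minus strand, at -23. Top2a also has 6 CCAAT matches, while Mki67 has 3.

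The first comparison set monocyte-derived leptomeningeal macrophages against monocyte-derived microglia, that is, the brain surface against the parenchyma within one fate-mapped origin. The compartments were also isolated differently, by washing cells off the surface after collagenase and by further digestion and a Percoll step, so isolation and compartment cannot be told apart. Of the 10 genes, 7 were higher at the brain surface: the helicase genes Mcm4, Mcm5 and Mcm6, the clamp gene Pcna, and Mki67, Top2a and Stmn1. None was lower, and Mcm2, Mcm3 and Mcm7 did not pass the test. In bulk samples, fewer cells of a type that transcribes a gene and less of its RNA per cell cannot be told apart. A gene is called where edgeR's quasi-likelihood test, adjusted by Benjamini-Hochberg over all tested genes, gave a value under 0.05; by that rule 35.3% of all genes were called in this comparison and 19.0% were called higher. The median log2 fold change was 0.85 over the 10 genes and -0.04 over all tested genes. Libraries of the groups did not overlap for 7 of the 10 genes, and for 37.2% of all tested genes in either direction.

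Among the helicase genes, Mcm6 had 23.9, 25.3, 26.8 and 31.0 CPM in monocyte-derived leptomeningeal macrophages, against 15.6, 15.7, 16.8 and 11.97 CPM in monocyte-derived microglia. The lowest leptomeningeal library lay above the highest microglial one, and the log2 fold change was 0.83 ± 0.22 (SE; edgeR adjusted p = 0.00264). Mcm5 had 14.1, 19.8, 21.7 and 15.5 CPM at the surface, against 9.80, 5.79, 12.6 and 9.58 CPM in the parenchyma. These groups did not overlap either, by a narrower margin, and the log2 fold change was 0.88 ± 0.30 (edgeR adjusted p = 0.0221). For Mcm4 the leptomeningeal libraries held 21.1, 16.5, 17.2 and 16.2 CPM, against 9.22, 14.9, 12.6 and 7.98 CPM in monocyte-derived microglia, with a log2 fold change of 0.68 ± 0.27 (edgeR adjusted p = 0.0474). The nearest Mcm4 libraries of the groups lay at 16.2 and 14.9 CPM, and the call held in 4 of 15 alternatives, with edgeR or DESeq2 adjusted p between 0.0280 and 0.276 over them. It was lost without monocyte-derived leptomeningeal replicate 1, 2, 3 or 4 (adjusted p = 0.123, 0.0588, 0.0776 and 0.0601 in edgeR) and without monocyte-derived microglia replicate 1, 3 or 4 (adjusted p = 0.144, 0.0577 and 0.143). Mcm5 lost its call without leptomeningeal replicate 3 (edgeR adjusted p = 0.0941), without microglia replicate 2 (adjusted p = 0.0832) and in DESeq2 (adjusted p = 0.0576), over a range of 0.00878 to 0.137 in its alternatives.

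The other helicase subunits did not pass the test. Mcm2 averaged 7.27 ± 0.473 CPM in monocyte-derived leptomeningeal macrophages and 5.25 ± 2.87 CPM in monocyte-derived microglia (SD, n = 4 each), and its groups overlapped. Mcm3, the MCM gene with the highest 3' UMI level there, averaged 31.4 ± 3.12 CPM at the surface and 28.4 ± 2.77 CPM in the parenchyma, a log2 fold change of 0.15 (95% interval -0.23 to 0.52). Mcm7 had 23.7 ± 3.72 CPM in leptomeningeal cells and 27.6 ± 8.69 CPM in microglia, a log2 fold change of -0.18 (95% interval -0.65 to 0.29). For Mcm2 the interval ran from -0.39 to 1.21.

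Pcna was the best-counted of the 10 genes, with 660 UMIs in monocyte-derived leptomeningeal macrophages and 375 in monocyte-derived microglia. Its level was 124, 124, 122 and 120.5 CPM in the leptomeningeal libraries, against 60.5, 79.5, 68.7 and 60.7 CPM in the microglial ones. The leptomeningeal values, from 177, 113, 191 and 179 UMIs, lay between 120.5 and 124 CPM, far above every microglial value. The log2 fold change was 0.87 ± 0.14 (edgeR adjusted p = 8.73e-06). Pcna kept its call in all 15 alternatives.

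The late cell cycle genes had the widest differences but few counts. Mki67 had 7, 7, 9 and 16 UMIs in the monocyte-derived leptomeningeal libraries (4.92, 7.69, 5.74 and 10.8 CPM), against 1, 3, 4 and 2 UMIs in monocyte-derived microglia (0.576, 2.48, 2.80 and 1.60 CPM). Every leptomeningeal library was above every microglial one, at a log2 fold change of 1.95 ± 0.60 (edgeR adjusted p = 0.0107); the call was lost without microglia replicate 1 (1.61, adjusted p = 0.0556; range over its alternatives 0.00231 to 0.0556). Top2a had 7.73, 14.3, 14.0 and 18.2 CPM at the surface, against 1.15, 7.45, 2.10 and 3.19 CPM in the parenchyma. Its lowest leptomeningeal library lay just above microglia replicate 2, the highest of that group, and the log2 fold change was 2.02 ± 0.46 (edgeR adjusted p = 0.000638). Stmn1 had 23.2, 23.1, 12.8 and 24.9 CPM in leptomeningeal libraries, against 10.4, 12.4, 7.71 and 10.4 CPM in microglia, a log2 fold change of 1.02 ± 0.29 (edgeR adjusted p = 0.00483). Leptomeningeal replicate 3 was low for Stmn1, close to the microglial range, whereas the other 3 were about level. Top2a and Stmn1 kept their calls in all 15 alternatives.

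Marker lists of several further cell types differed here too. The neutrophil and granulocyte progenitor list (7 of its 11 genes measured) summed to 1095 to 2582 CPM in monocyte-derived leptomeningeal macrophages, against 10.95 to 51.9 CPM in monocyte-derived microglia, where Prtn3 and Ctsg were at 0. All 5 of its tested genes were called higher, among them Camp and Ngp, granule genes of maturing neutrophils, at 328 ± 107 and 344 ± 143 CPM in leptomeningeal cells, against 1.47 ± 1.39 and 1.10 ± 0.478 CPM in microglia (SD, n = 4 each). T and NK cell markers (15 of 16 measured) summed to 679 to 1257 CPM, against 164 to 217 CPM, with 15 of 15 tested called higher and none at 0 in either group. Monocyte markers (7 of 8 measured) summed to 849 to 1107 CPM, against 86.5 to 136 CPM, with 7 of 7 called higher and none at 0. B cell markers (4 of 7 measured) summed to 522 to 796 CPM, against 444 to 499 CPM, with 2 of 2 tested called higher. Fibroblast and mural cell markers (3 of 8 measured) summed to 24.2 to 40.2 CPM, against 0 to 0.701 CPM. Dendritic cell markers (7 of 8 measured) summed to 468 to 697 CPM in leptomeningeal cells, against 996 to 1081 CPM in microglia. Most of the microglial sum was Siglech, at 296 ± 122 CPM in leptomeningeal cells and 1009 ± 45.2 CPM in microglia. Host microglia held Siglech at 1805 ± 82.1 CPM, so these sums do not measure dendritic cells. Of the 6 tested, 4 were called higher and 1 lower. Cd209a averaged 198 ± 28.8 CPM in leptomeningeal cells and 11.5 ± 7.99 CPM in microglia. The part of these cells in the differences of the replication genes was not tested.

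Scaling mattered for the size of the differences in this comparison. With library totals alone, the median of all tested genes moved by -0.30 on the log2 scale and the calls over all genes became 1317 higher and 3335 lower, against 2012 higher and 1724 lower with TMM; 4 of the 10 genes were called higher (Pcna, Mki67, Top2a and Stmn1), none lower. Mcm4, Mcm5 and Mcm6 then had log2 fold changes of 0.38, 0.57 and 0.52 (edgeR adjusted p = 0.276, 0.137 and 0.0655).

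**Figure D1:**
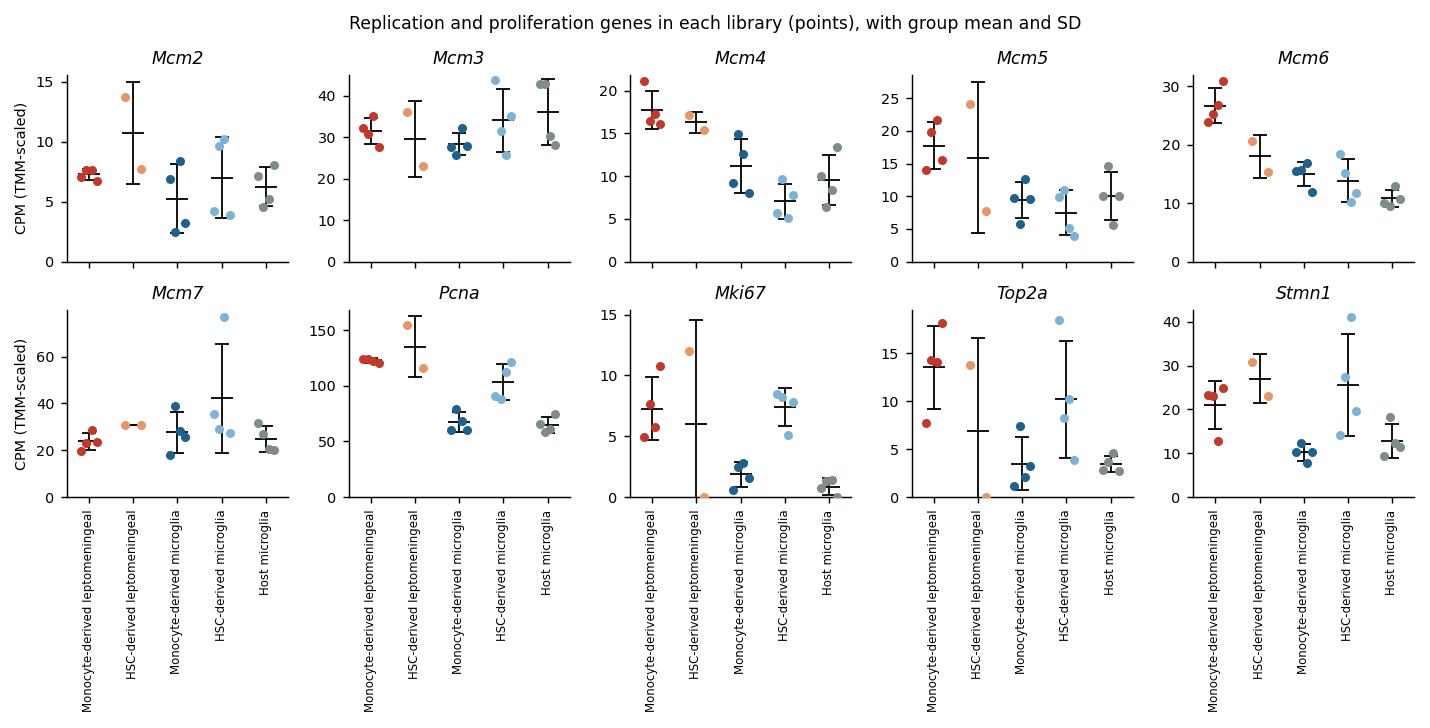
CPM (TMM-scaled, linear axes from 0) of the 10 genes in each of the 18 libraries (points), by group, with the group mean (horizontal mark) and SD (bar). Pcna lies at 120.5 to 124 CPM in the 4 monocyte-derived leptomeningeal libraries, above all monocyte-derived and host microglia.

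The same comparison of compartments among HSC-derived cells rested on 2 leptomeningeal libraries, one of them shallow. None of the 10 genes was called, where 9.72% of all genes were; 3 had an unadjusted p under 0.05 (Mcm4, Mcm5 and Pcna), as did 22% of all genes, and DESeq2 called none. Pcna had 155 and 116 CPM in HSC-derived leptomeningeal macrophages, against 90.7, 88.0, 113 and 121 CPM in HSC-derived microglia, a log2 fold change of 0.53 ± 0.22 (edgeR adjusted p = 0.127). The groups overlapped through the shallow libraries, and without the 3 shallow libraries the log2 fold change of Pcna was 0.80. That fit keeps 1 HSC-derived leptomeningeal library, whose spread is taken from the other groups, so no call is given for it. Mcm4 had 17.2 and 15.4 CPM in HSC-derived leptomeningeal macrophages, against 5.67, 9.62, 5.12 and 7.83 CPM in HSC-derived microglia, without overlap, at 1.17 ± 0.57 (adjusted p = 0.218 in edgeR). Those leptomeningeal values came from 10 and 2 UMIs. Mcm4 was the 1 gene of the 10 without overlap here, as were 21.4% of all tested genes in either direction. T and NK cell markers summed to 339 to 723 CPM in HSC-derived leptomeningeal macrophages and 15.4 to 247 CPM in HSC-derived microglia, with 8 of 15 tested called higher. Monocyte markers were called higher for 3 of 7 genes, and neutrophil and granulocyte progenitor markers for 0 of 5. The part of these cells was not tested.

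Mki67 and Top2a were uneven in the HSC-derived leptomeningeal pair. Mki67 had 12.02 and 0 CPM there, against 8.502, 8.25, 5.12 and 7.83 CPM in HSC-derived microglia; Top2a had 13.7 and 0 CPM, against 18.4, 8.25, 10.2 and 3.91 CPM. The zeros are from the shallow library, in which a count of 0 allows up to 23.1 CPM, so a level like that of its partner was not detectable as different at this depth. Log2 fold changes were 0.21 (95% interval -1.45 to 1.87) for Mki67 and -0.09 (-1.53 to 1.35) for Top2a.

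Whether the compartment difference itself depended on origin was tested by the interaction term. None of the 10 genes was called, against 0.0566% of all genes. Top2a was the only one with an unadjusted p under 0.05, as had 7.98% of all genes, at a log2 difference of 2.11 ± 0.85 between the monocyte-derived and the HSC-derived contrast (edgeR adjusted p = 0.539). Mki67 had 1.74 (95% interval -0.28 to 3.75), and Pcna 0.34 (-0.17 to 0.85). DESeq2 returned no adjusted p for these genes in the interaction.

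At the brain surface, monocyte-derived and HSC-derived macrophages were also set against each other. Neutrophil and granulocyte progenitor markers summed to 1095 to 2582 CPM in monocyte-derived and 5.15 to 30.8 CPM in HSC-derived cells, with 3 of 5 tested called higher. Monocyte markers summed to 849 to 1107 CPM in monocyte-derived and 377 to 833 CPM in HSC-derived cells, with 1 of 7 called higher. Of T and NK, B and dendritic cell markers none was called. The part of these cells was not tested. No gene of the 10 was called or had an unadjusted p under 0.05 in edgeR, against 0.302% of all genes called, and DESeq2 gave no adjusted p for any of them. Pcna averaged 123 ± 1.87 CPM in monocyte-derived cells (SD, n = 4) and 135 ± 27.6 CPM in HSC-derived cells (n = 2), a log2 fold change of -0.22 (95% interval -0.61 to 0.17). Mcm6 averaged 26.7 ± 3.06 CPM in monocyte-derived cells and 18.01 ± 3.68 CPM in HSC-derived cells, a log2 fold change of 0.46 (-0.29 to 1.205). The intervals of Mki67 (-1.87 to 1.22) and Top2a (-0.97 to 1.65) hold differences in both directions. These values rest on 1 library: without HSC-derived replicate 1, which leaves only the library with 0 UMIs of both genes, no fold can be given for them, and Pcna was at 0.18; without replicate 2, Pcna was at -0.34.

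**Figure D2:**
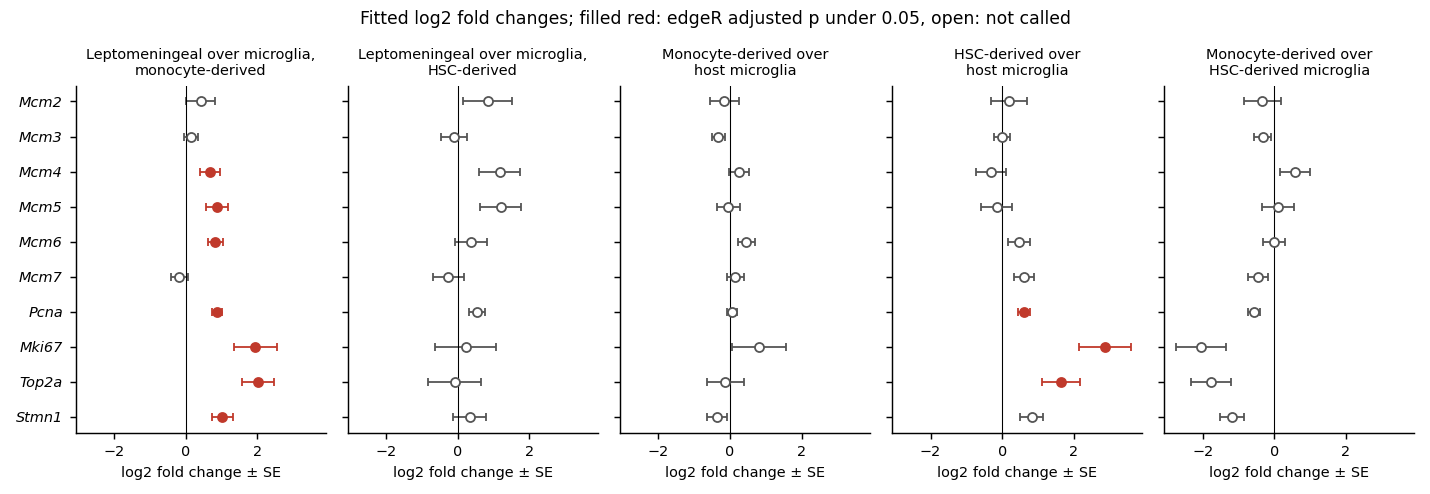
Fitted log2 fold changes (points) with their SE (bars) for the 10 genes in 5 comparisons, the first-named group over the second; filled red points passed the edgeR test (adjusted p under 0.05), open points did not. There are 7 filled points for leptomeningeal over microglia in monocyte-derived cells, 3 for HSC-derived over host microglia, and 0 in the other 3 panels.

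In the parenchyma, HSC-derived microglia were set against host microglia of the irradiated recipients. The HSC-derived libraries were not uniform: over the counted genes, replicates 1 and 2 differed more from the shallow replicates 3 and 4 than from each other. Of the 10 genes, 3 were higher in HSC-derived microglia, Pcna, Mki67 and Top2a, and none was lower; 29.4% of all genes were called in this comparison and 16.3% were called higher. The median log2 fold change over the 10 genes was 0.54, against 0.00 over all genes. Libraries of the groups did not overlap for 2 of the 10 genes, and for 27.1% of all tested genes in either direction. No helicase gene passed the test.

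Mki67 had 8.502, 8.25, 5.12 and 7.83 CPM in HSC-derived microglia, against 0.716, 1.36, 1.40 and 0 CPM in host microglia. All HSC-derived libraries were above all host libraries, at a log2 fold change of 2.87 ± 0.72 (edgeR adjusted p = 0.00244), from 15 UMIs in the HSC-derived and 8 in the host group. Replicates 3 and 4 of HSC-derived microglia contributed 1 and 2 of those UMIs; without the shallow libraries the log2 fold change was 2.97 (adjusted p = 0.00149 in edgeR), and the call held in all 14 alternatives in which the gene was tested. Top2a had 18.4, 8.25, 10.2 and 3.91 CPM in HSC-derived microglia, against 2.86, 3.64, 4.56 and 2.68 CPM in host microglia, a log2 fold change of 1.64 ± 0.53 (edgeR adjusted p = 0.0169). Its groups overlapped, and the call was lost without HSC-derived replicate 1, the highest library (1.06, edgeR adjusted p = 0.264; range over its alternatives 0.00670 to 0.264).

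Pcna had 90.7, 88.0, 113 and 121 CPM in HSC-derived microglia, against 65.9, 58.7, 60.7 and 74.3 CPM in host microglia. The groups did not overlap, the log2 fold change was 0.62 ± 0.16 (edgeR adjusted p = 0.00379), and it was 0.47 without the shallow libraries (adjusted p = 0.0283 in edgeR). With library totals alone, which moved the median of all genes by -0.29 and gave 1192 higher and 2546 lower calls over all genes, against 1723 higher and 1391 lower with TMM, Pcna was at 0.30 and lost its call (edgeR adjusted p = 0.162; range over its alternatives 0.00122 to 0.162). Stmn1 had 14.2, 27.5, 41.0 and 19.6 CPM in HSC-derived microglia, against 9.31, 18.2, 12.3 and 11.4 CPM in host microglia. It fell just short of the threshold, at 0.82 ± 0.32 (edgeR adjusted p = 0.0528), and passed it without host replicate 2 (1.05, adjusted p = 0.0224), without HSC-derived replicate 1 (1.10, adjusted p = 0.0171) and with relative log expression size factors (0.84, adjusted p = 0.0481), over a range of 0.0171 to 0.239 in its alternatives.

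Of the helicase genes in HSC-derived against host microglia, Mcm7 came nearest to the threshold, at 0.60 ± 0.28 (edgeR adjusted p = 0.0996). Its mean of 42.1 ± 23.4 CPM in HSC-derived microglia, against 24.7 ± 5.50 CPM in host microglia (SD, n = 4 each), held a single library at 76.9 CPM, from 15 UMIs. Mcm6 averaged 13.9 ± 3.65 CPM in HSC-derived and 10.8 ± 1.52 CPM in host microglia, and Mcm3, at 34.1 ± 7.66 CPM in HSC-derived and 36.0 ± 7.95 CPM in host microglia, had a log2 fold change of -0.00 (95% interval -0.45 to 0.44). Mcm2, Mcm4 and Mcm5 had intervals from -0.80 to 1.16, from -1.12 to 0.49 and from -0.99 to 0.68.

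Monocyte markers summed to 125 to 202 CPM in HSC-derived microglia, against 14.1 to 16.5 CPM in host microglia, with 4 of 7 tested called higher and 2 at 0 in each group. T and NK cell markers summed to 15.4 to 247 CPM, against 37.2 to 76.3 CPM, with 6 of 15 called higher and 1 at 0 in HSC-derived microglia. Fibroblast and mural cell markers summed to 0 to 30.7 CPM in HSC-derived microglia and were at 0 in host microglia, with 2 of 2 tested called higher. Choroid plexus markers summed to 13.7 to 482 CPM in HSC-derived microglia, against 2076 to 3511 CPM in host microglia, with 4 of 4 called lower. Dendritic cell markers had 4 of 6 higher and 1 lower (1147 to 1277 CPM in HSC-derived, 1712 to 1882 CPM in host microglia), those of neurons, astrocytes and oligodendrocytes 3 of 4 higher and 1 lower (63.2 to 250.5 CPM in HSC-derived, 188 to 236 CPM in host microglia), and those of endothelial cells 1 of 3 higher and 2 lower (3.91 to 41.0 CPM in HSC-derived, 26.8 to 34.4 CPM in host microglia). Most of the dendritic sums was Siglech, at 1147 ± 24.5 CPM in HSC-derived and 1805 ± 82.1 CPM in host microglia. Neutrophil and granulocyte progenitor markers were near 0 in both, at 0 to 10.2 CPM in HSC-derived and 0 to 0.670 CPM in host microglia, with 5 genes at 0 in HSC-derived and 6 in host microglia. The part of these cells in the differences was not tested.

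Monocyte-derived microglia were compared with host microglia in the same way. None of the 10 genes was called, whereas 30.2% of all genes were; none had an unadjusted p under 0.05 in edgeR, and DESeq2 called none. Pcna had 60.5, 79.5, 68.7 and 60.7 CPM in monocyte-derived microglia, against 65.9, 58.7, 60.7 and 74.3 CPM in host microglia. The groups overlapped almost wholly, and the log2 fold change was 0.06 (95% interval -0.23 to 0.34). Mki67 averaged 1.86 ± 0.999 CPM in monocyte-derived and 0.871 ± 0.661 CPM in host microglia (SD, n = 4 each), with an interval of -0.66 to 2.29. Top2a averaged 3.47 ± 2.78 CPM in monocyte-derived and 3.44 ± 0.859 CPM in host microglia. Mcm6, at 15.0 ± 2.11 CPM in monocyte-derived and 10.8 ± 1.52 CPM in host microglia, and Mcm3, at 28.4 ± 2.77 CPM in monocyte-derived and 36.0 ± 7.95 CPM in host microglia, had log2 fold changes of 0.45 (-0.00 to 0.91) and -0.33 (-0.69 to 0.02).

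Between monocyte-derived and HSC-derived microglia, both of donor marrow, none of the 10 genes was called by edgeR, against 1.89% of all genes, with 13 higher and 187 lower (58 higher and 66 lower with library totals alone, which moved the median of all genes by 0.25). Of them, 4 had an unadjusted p under 0.05 with lower levels in monocyte-derived cells (Pcna, Mki67, Top2a and Stmn1), as did 15.5% of all genes in either direction. DESeq2 called Pcna and Stmn1 lower (adjusted p = 0.0265 and 0.0347). Of all genes DESeq2 called 4.45% in this comparison, 24 higher and 511 lower. Stmn1 had 10.4, 12.4, 7.71 and 10.4 CPM in monocyte-derived microglia, against 14.2, 27.5, 41.0 and 19.6 CPM in HSC-derived microglia, without overlap (log2 fold change -1.18 ± 0.35, edgeR adjusted p = 0.0676). Libraries of the groups did not overlap for 3 of the 10 genes, and for 10.6% of all tested genes in either direction. Pcna, at 67.3 ± 8.94 CPM in monocyte-derived and 103 ± 16.4 CPM in HSC-derived microglia, had -0.56 ± 0.17 (edgeR adjusted p = 0.0700). Mki67 had -2.06 ± 0.70 (edgeR adjusted p = 0.121) and Top2a -1.77 ± 0.56 (edgeR adjusted p = 0.0909). Single libraries decided these calls: without HSC-derived replicate 1, Stmn1 (adjusted p = 0.0159 in edgeR) and Pcna (adjusted p = 0.0481) passed, without HSC-derived replicate 2, Pcna did (adjusted p = 0.0387), and without monocyte-derived replicate 2, Top2a did (adjusted p = 0.0471). Without the 3 shallow libraries none passed, with log2 fold changes of -0.40 for Pcna, -2.16 for Mki67, -1.99 for Top2a and -1.02 for Stmn1. Over the alternatives the adjusted p ran from 0.0265 to 0.456 for Pcna, from 0.0471 to 0.374 for Top2a and from 0.0159 to 0.332 for Stmn1. The comparisons of microglia share libraries, so their results are not independent of each other.

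The genes differed in the order of the 5 groups. Pcna had the highest 3' UMI level of the 10 in all groups, at mean levels from 64.9 CPM in host microglia to 135 CPM in HSC-derived leptomeningeal macrophages, with a step between HSC-derived microglia at 103 ± 16.4 CPM and monocyte-derived microglia at 67.3 ± 8.94 CPM, whose libraries did not overlap. Mcm4 and Mcm5 were highest in the leptomeningeal groups, at 17.7 ± 2.28 and 17.7 ± 3.57 CPM in monocyte-derived and 16.3 ± 1.25 and 15.9 ± 11.6 CPM in HSC-derived cells, and their means were at most 11.2 CPM in any microglial group. Mcm3 was highest in host microglia, and every neighbour in its order overlapped. Mki67 was highest in HSC-derived microglia, at 7.42 ± 1.56 CPM, next to monocyte-derived leptomeningeal macrophages, at 7.28 ± 2.60 CPM, with overlapping libraries. The 3' counts do not depend on transcript length as full-length reads do, but capture may differ between genes, so levels of different genes are given side by side without a test.

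Summed CPM of Mcm2 to Mcm7 ran from 118 to 137 in monocyte-derived leptomeningeal macrophages, from 100.1 to 143 in HSC-derived leptomeningeal macrophages, from 86.2 to 111 in monocyte-derived microglia, from 90.02 to 133 in HSC-derived microglia and from 82.9 to 112 in host microglia. Of all MCM counts, Mcm3 made up 25.2% in monocyte-derived leptomeningeal macrophages (95% Clopper-Pearson interval 22.0 to 28.7, 674 UMIs), 29.5% in monocyte-derived microglia (25.7 to 33.6, 542 UMIs) and 37.3% in host microglia (33.8 to 40.8, 757 UMIs). Mcm6 made up 21.5% in monocyte-derived leptomeningeal macrophages, 15.7% in monocyte-derived microglia and 11.6% in host microglia, and Mcm7 19.1%, 27.7% and 25.2%. Intervals treat UMIs as independent. In the library values, Mcm6 held 19.5% to 25.7% in monocyte-derived leptomeningeal macrophages and 13.9% to 17.9% in monocyte-derived microglia, without overlap. In HSC-derived cells Mcm6 held 14.6% in leptomeningeal macrophages (libraries 14.5% to 15.4%, 96 MCM UMIs) and 13.9% in microglia (libraries 7.69% to 15.7%, 209 MCM UMIs), and these overlapped.

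**Figure D3:**
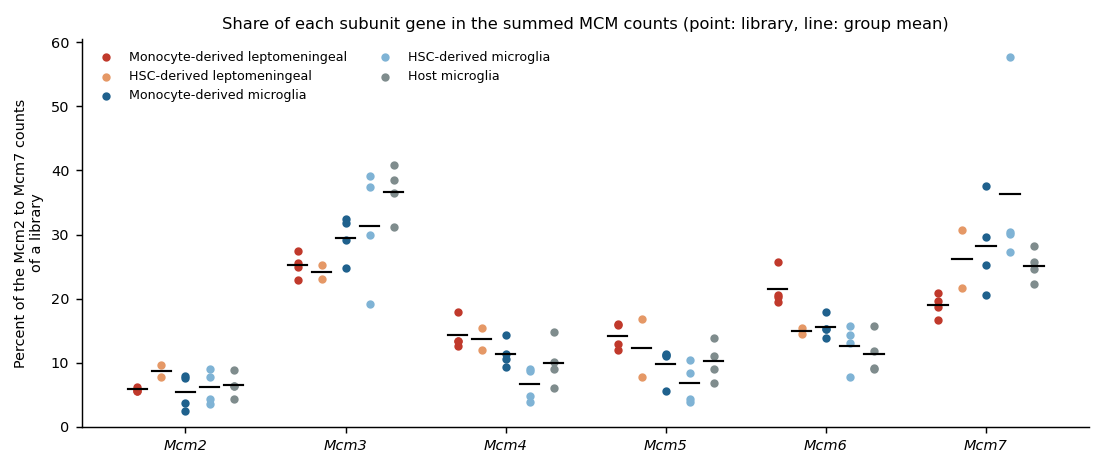
Percent of the Mcm2 to Mcm7 counts of a library that came from each subunit gene (points: libraries; black lines: group means; linear axis from 0). Mcm3 is lowest in the leptomeningeal groups and highest in host microglia, Mcm6 is highest in monocyte-derived leptomeningeal libraries (19.5% to 25.7%), and the Mcm7 point at 57.7% is HSC-derived microglia replicate 3.

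Mcm7 (chr5:138164583-138172422, minus strand; GENCODE vM21) overlaps Cops6 and Ap4m1 on the opposite strand, which had 1544 and 464 UMIs over the 18 libraries. Whether counting used strand is not given in the sources used here, so reads of these genes and of Mcm7 may not be separable. Pcna has the annotated pseudogene copies Pcna-ps1 and Pcna-ps2, with which reads could be shared.

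Over the 18 libraries, the log2 CPM of Mki67 and Top2a had a Pearson correlation of 0.85, that of Pcna and Stmn1 0.72, and that of Mcm4 and Mcm6 0.69, as a description of libraries that share group and depth. Mcm7 had -0.40 with Mcm4 and -0.26 with Mcm6, and Pcna had 0.61 with Mcm6 and 0.68 with Mki67. Without the 3 shallow libraries, Mcm7 had -0.14 with Mcm4 and -0.04 with Mcm6, and Pcna had 0.84 with Mcm6 and 0.83 with Mki67. The 6 genes most like the mean log2 CPM of Mcm2 to Mcm7, among 8394 genes, were Plekho2 (0.90), Etv3 (0.89), Csrnp1 (0.88), S100a10 (0.88), Bud31 (0.88) and Mcemp1 (0.88), which ranked from 10 to 176 when the shallow libraries were left out.

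Beyond the 10 genes, 185 other cell cycle genes in 5 lists were examined, of which 154 were measured and 113 tested. For monocyte-derived leptomeningeal macrophages against monocyte-derived microglia, 32 were higher and 5 lower, against 2012 higher and 1724 lower of all 10597 genes. Both directions together made 32.7% of those tested, close to the 35.3% of all genes. With library totals alone the split was 16 higher and 15 lower, against 1317 higher and 3335 lower over all genes. The median log2 fold change was 0.29, against -0.04 over all genes.

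The G2 and mitosis list had 12 higher and 0 lower of 29 tested (median log2 fold change 0.54), 41.4% called against 35.3% of all genes. Its smallest p-values belonged to tubulins, which also form the cytoskeleton of non-dividing cells: Tubb4b averaged 62.7 ± 9.12 CPM in leptomeningeal cells and 22.8 ± 2.68 CPM in microglia (log2 fold change 1.44, SD, n = 4 each), and Tuba1b 503 ± 77.0 CPM in leptomeningeal cells and 191 ± 19.3 CPM in microglia (1.40). Cenpa, the centromeric histone, averaged 30.2 ± 9.31 CPM at the surface and 11.5 ± 4.20 CPM in the parenchyma (1.37, edgeR adjusted p = 0.000173). Kif23, named after its values were seen, had a wider fold, at 10.7 ± 2.19 CPM in leptomeningeal cells and 1.55 ± 1.26 CPM in microglia (2.82, edgeR adjusted p = 0.000178). Cdk1, the mitotic kinase, did not pass, at 13.3 ± 4.18 CPM in leptomeningeal cells and 6.78 ± 3.70 CPM in microglia (0.99 ± 0.43, edgeR adjusted p = 0.0706).

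At the replication fork, 27.6% of 29 tested genes were called in monocyte-derived leptomeningeal macrophages, against 35.3% of all genes. Of these 29 genes, 1 was lower and 7 were higher. They included Rpa2, a subunit of the single-strand binding complex (26.4 ± 4.02 CPM against 12.5 ± 3.91 CPM in microglia), the flap nuclease gene Fen1 (21.7 ± 6.65 CPM against 10.4 ± 2.42 CPM in microglia), the histone chaperone gene Nasp (29.4 ± 8.15 CPM against 15.5 ± 2.22 CPM in microglia) and Pole4 of DNA polymerase epsilon (92.1 ± 11.8 CPM against 53.1 ± 11.9 CPM in microglia). Of origin licensing and helicase activation, 20% of the genes were called. There 2 of 15 were higher, the licensing factor gene Cdt1 (log2 fold change 1.09) and Gins4 of the active helicase (0.84), and 1 was lower, the origin recognition gene Orc2 (-1.06). Of deoxynucleotide supply, 4 of 9 were higher and 0 lower: Dut (1.27), Dck (0.76), the ribonucleotide reductase gene Rrm1 (0.81), and Samhd1 (0.58), whose product breaks deoxynucleotides down in non-dividing macrophages. That made 44.4% of this list called.

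Among cyclins, kinases, inhibitors and E2F/RB regulators, 7 of 31 were higher and 3 lower at the surface, 32.3% called against 35.3% of all genes. Cyclin D2 (Ccnd2) averaged 222 ± 38.5 CPM in leptomeningeal cells and 62.5 ± 8.75 CPM in microglia (log2 fold change 1.84). Of the 6 Cdkn inhibitor genes tested, 3 were higher (Cdkn1a, Cdkn1c and Cdkn2d) and 0 lower; Cdkn1b, Cdkn2a and Cdkn2c did not pass. Cdkn1a, which encodes p21, had 691 ± 105 CPM in leptomeningeal cells, against 186 ± 10.4 CPM in microglia (1.90), and Cdkn2d, which encodes p19, had 34.1 ± 11.3 CPM in leptomeningeal cells, against 6.14 ± 1.97 CPM in microglia (2.40). E2f3 was lower, at 7.43 ± 1.81 CPM in leptomeningeal cells and 28.4 ± 0.899 CPM in microglia (-1.89), and Ccnd1 did not pass (0.31 ± 0.13, edgeR adjusted p = 0.0666).

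Among HSC-derived cells the compartment comparison called 3 of the 113 genes higher and 2 lower, 4.42% against 9.72% of all genes. The higher ones were Ccnd2 (224 ± 33.3 CPM in leptomeningeal cells, n = 2, and 60.4 ± 10.6 CPM in microglia, n = 4), the nuclear envelope gene Lbr and the inhibitor gene Cdkn1c, and the lower ones were Ccng2 and Cdkn2a. Cdkn2a had 0 UMIs in the leptomeningeal and 20 in the microglial libraries, at least 2.52-fold lower when 3 counts are taken over the leptomeningeal group. None of the 113 genes was called by edgeR between the leptomeningeal groups (14 had an unadjusted p under 0.05) or in the interaction (13 had one); DESeq2, which gave an adjusted p for 5 listed genes in each, called 0.

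Against host microglia, HSC-derived microglia had 15 of the 113 genes higher and 9 lower, 21.2% called against 29.4% of all genes. With library totals alone 10 were higher and 18 lower, against 1192 higher and 2546 lower over all genes. G2 and mitosis genes had 7 higher and 1 lower of 29, 27.6% called, near the share of all genes. The condensin gene Smc4 averaged 49.7 ± 22.0 CPM in HSC-derived and 13.9 ± 3.04 CPM in host microglia. The midbody kinesin gene Kif23 averaged 9.68 ± 7.06 CPM in HSC-derived and 0.636 ± 0.122 CPM in host microglia. Ncaph, another condensin gene, was lower, at 10.4 ± 0.942 CPM in HSC-derived and 32.8 ± 2.81 CPM in host microglia. Anln, needed in cytokinesis, had 4, 11, 0 and 1 UMIs in the HSC-derived libraries, against 0, 3, 0 and 0 in the host libraries, so that its call rests mostly on 1 library of each group and the groups overlapped. Cdk1 did not pass (1.28 ± 0.53, edgeR adjusted p = 0.0679). Tk1 (thymidine kinase) rose to 12.2 ± 3.78 CPM, against 4.93 ± 1.75 CPM in host microglia. The E2F/RB list had 4 higher and 7 lower of 31, 35.5% called, with Cdkn1a at 179 ± 103 CPM in HSC-derived and 2075 ± 265 CPM in host microglia.

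Monocyte-derived microglia had 21 of the 113 genes higher and 16 lower than host microglia, 32.7% called against 30.2% of all genes. T and NK cell markers were called higher there for 14 of 15 genes, at 164 to 217 CPM in monocyte-derived against 37.2 to 76.3 CPM in host microglia. Monocyte markers were higher for 5 of 7 genes (86.5 to 136 CPM in monocyte-derived, 14.1 to 16.5 CPM in host microglia), neutrophil and granulocyte progenitor markers for 2 of 5 (10.95 to 51.9 CPM in monocyte-derived, 0 to 0.670 CPM in host microglia), and dendritic cell markers for 3 of 6 with 1 lower (996 to 1081 CPM in monocyte-derived, 1712 to 1882 CPM in host microglia). Most of the dendritic sums was Siglech, at 1009 ± 45.2 CPM in monocyte-derived and 1805 ± 82.1 CPM in host microglia. Choroid plexus markers were lower for 4 of 4 (5.605 to 161 CPM in monocyte-derived, 2076 to 3511 CPM in host microglia). The part of these cells in the differences was not tested. Origin licensing genes had 4 higher and 0 lower of 15 (Orc3, Mcmbp, Mcm9 and Orc6), 26.7% called, near the share of all genes. Mcmbp, which binds MCM subunits, averaged 81.8 ± 11.8 CPM in monocyte-derived and 55.0 ± 3.76 CPM in host microglia (log2 fold change 0.57). Pole2 had 8, 12, 10 and 7 UMIs in monocyte-derived and 1, 2, 0 and 0 in host libraries, a ratio of 17.4 after scaling (95% Clopper-Pearson interval 5.51 to 88.3), and Anln had 15, 6, 18 and 10 UMIs in monocyte-derived and 0, 3, 0 and 0 in host libraries, a ratio of 23.1 (7.44 to 115.6). Thymidylate synthase (Tyms) was lower, at 10.6 ± 3.29 CPM in monocyte-derived and 20.0 ± 3.83 CPM in host microglia. The E2F/RB list had 4 higher and 9 lower of 31, 41.9% called. Its smallest p-value belonged to Cdkn1a, at 186 ± 10.4 CPM in monocyte-derived and 2075 ± 265 CPM in host microglia (log2 fold change -3.48, edgeR adjusted p = 3.98e-09). The G1 cyclin gene Ccnd1 was lower in monocyte-derived (156 ± 11.3 CPM) and in HSC-derived microglia (187 ± 26.7 CPM) than in host microglia (309 ± 17.99 CPM). Cdk1 did not pass (0.35 ± 0.46, edgeR adjusted p = 0.627). Between monocyte-derived and HSC-derived microglia, 2 of the 113 genes were called, Tuba1b and Kif23, both lower in monocyte-derived cells, which is 1.77% against 1.89% of all genes, and Cdk1 had -0.94 ± 0.54 (edgeR adjusted p = 0.411).

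**Figure D4:**
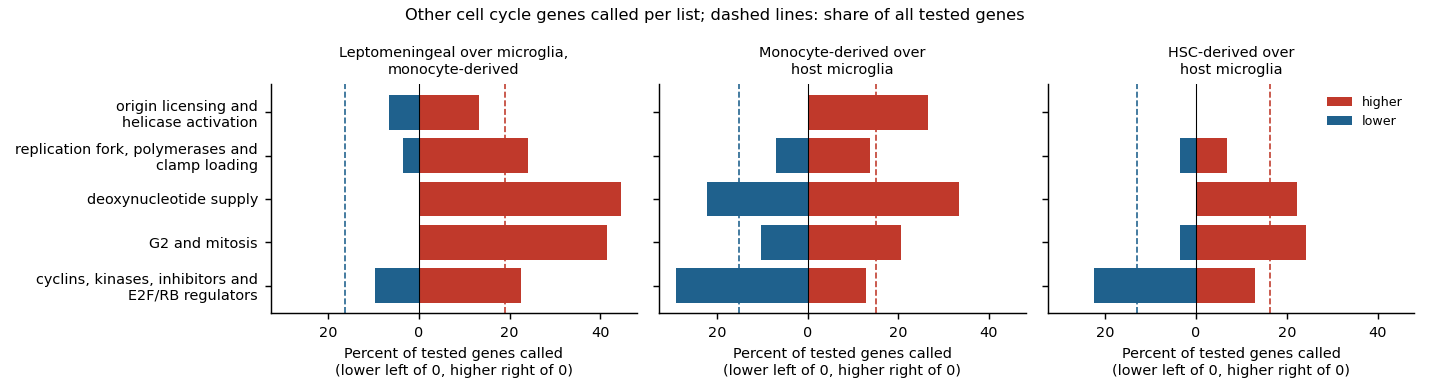
Percent of the tested genes of each of 5 cell cycle lists that were called higher (red, right of 0) or lower (blue, left of 0) in 3 comparisons; dashed lines give the shares of all tested genes. For leptomeningeal over microglia in monocyte-derived cells the deoxynucleotide and G2 and mitosis bars reach right of the line at 19.0% with no bar to the left, and the bars of the cyclin and inhibitor list point both ways in each panel.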

How the data were processed

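The authors deposited UMI counts per gene from bulk MARS-seq, with mm10 as build per the submitters' processing notes; the aligner, the counting program and any filter on genes are not stated. The normalized and rld columns of the same table were not used, and 2 libraries that match no described sample were left out. Groups came from the sample labels. Genes were filtered with filterByExpr in edgeR 4.0.16 (R 4.3.3, limma 3.58.1), libraries were scaled by TMM, and 1 robust quasi-likelihood model with a coefficient per group was fitted to 18 libraries. Tests were two-sided with Benjamini-Hochberg adjustment over 10597 genes and a threshold of 0.05. SE is the log2 fold change over the root of F, and intervals of fold changes are 95%. The fit was tested on simulated data.

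Gene positions are from GENCODE vM21 and promoters from RefSeq (GRCm38.p6). The 10 genes and all lists were chosen with earlier results of these data known. Every listed gene is counted. Those named were taken, per list and comparison, from the up to 4 called genes with the smallest p. Cdkn1a, Ccnd1, Cdk1 and Rrm2 could also be named where tested. Not every gene that meets this rule is named, and Kif23 and further Cdkn genes at the brain surface were named beyond it. Like genes had a mean of at least 10 CPM and were compared on log2 CPM with a prior count of 2. Alternatives were relative log expression size factors, library totals, no filter, DESeq2 1.42.0, fewer groups in the fit, a replicate block, and leaving out libraries. No libraries of a group matched within sampling noise (lowest chi-square per degree of freedom 1.43). In HSC-derived microglia, replicates 1 and 2 gave 1.72 and the shallow replicates 3 and 4 gave 2.55, while pairs across them gave 8.60 to 11.2. Pairs of monocyte-derived leptomeningeal libraries reached 7.66.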

Additional observations from a re-analysis of the deposited data

Results flagged for a closer look

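Mcm7 had 76.9 CPM in HSC-derived microglia replicate 3, far above the other 3 libraries of that group, which lay between 27.4 and 35.4 CPM. This library is one of the 3 shallow ones, and the value rests on 15 UMIs. Stmn1 had 12.8 CPM in monocyte-derived leptomeningeal replicate 3, far below the other 3 libraries, at 23.1 to 24.9 CPM. Chance alone sets apart about 1 in 20 groups of this size. Of 44 sets of libraries examined in this way 2 were flagged, which is close to that rate.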

How the results depend on the processing

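Called changes of the 10 genes kept their direction in all 146 alternative values, and 19 of those values no longer passed the threshold. In monocyte-derived leptomeningeal macrophages against monocyte-derived microglia, 4 of the 10 genes passed with library totals alone, against 7. In HSC-derived against host microglia, 1 passed when only these groups were fitted, with 6 of the 10 tested. Between monocyte-derived and HSC-derived microglia, 2 passed in DESeq2, where 4.45% of all genes did, and 0 to 2 when 1 library was left out, against 0. Of the other cell cycle genes 0 passed with library totals, 0 with only these groups fitted and 0 without the 3 shallow libraries, against 2. There were 1 without a filter, 1 with the replicate block, and 0 to 2 when 1 library was left out. In HSC-derived leptomeningeal macrophages against HSC-derived microglia, 1 of the 10 genes passed without the 3 shallow libraries, against 0, and of the other genes 2 passed with only these groups fitted, 9 without the shallow libraries and 2 to 8 when 1 library was left out, against 5. The cause was not tested, except that fitting fewer groups tests fewer genes.

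Deviations of same-numbered libraries had correlations from -0.32 to 0.32 over 32 pairs, 1 of them over 0.1. Both extremes involve the 2 HSC-derived leptomeningeal libraries, whose deviations from their mean mirror each other. Monocyte-derived microglia and leptomeningeal libraries of the same number had 0.014 to 0.058. Without differently numbered pairs beside them, these values cannot tell whether numbers mark shared mice, and the numbers were not taken as pairs. With the replicate block, Mcm4 lost its call at the brain surface in monocyte-derived cells (edgeR adjusted p = 0.0730), leaving 6 of the 10 genes. Depth limits the HSC-derived groups most: 1 UMI stood for up to 7.70 CPM there.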
